A study of Saccharomyces cerevisiae with 6 samples.

Results

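Transcript levels of 31 genes of ergosterol synthesis, sterol esterification, sterol uptake and their control were compared between wild type budding yeast and cells that lack NPL3, the gene of an RNA-binding hnRNP protein. The genes were chosen by name, with earlier results of these data known. Every one of the 31 had 1 probe set among the 5449 genes tested. They comprise 9 genes of the mevalonate route, 14 of the later route from farnesyl diphosphate to ergosterol, 2 redox partners, 2 esterifying enzymes, 3 transcription factors and 1 importer. None of the probe sets is of a type that can match several transcripts, and all 31 lay above the background level of 2.13 on the log2 scale.

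Each of 6 Affymetrix arrays carried biotin-labelled cRNA from a mid-log culture in rich medium, 3 per genotype, and the labels call the arrays of a group biological replicates. The wild type strain is W303-1A with BAR1 deleted (bar1ΔHphMX). The deletion strain is WNPL3B1-2B, which carries npl3::KanMX, and the labels give the same strain name for all 3 of its arrays. Both groups are MATa haploids that carry bar1ΔHphMX, and both carry the alleles ade2-1 and can1-100, together with trp1-1 and his3-11,15 as well as ura3-1 and the same leu2 allele.

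Ergosterol is the main sterol of yeast membranes, the counterpart of cholesterol in animals. Its carbon comes from acetyl-CoA, which the mevalonate route turns into farnesyl diphosphate, also the source of ubiquinone, dolichol, haem A and protein prenyl groups. The late route joins farnesyl diphosphate into squalene, closes the ring system as lanosterol and then trims and desaturates it, with steps that consume oxygen and NADPH and use haem or iron enzymes. The zinc-cluster activators Upc2 and Ecm22 bind sterol regulatory elements in front of ERG genes. Upc2 raises the transcription of these genes when sterols run low.

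On the log2 scale NPL3 itself read 11.15 ± 0.35 on the wild type arrays and 3.96 ± 0.14 on those of the deletion (SD, n = 3 each), so a transcript that is absent by genotype still read 3.96. LEU2 rose by 5.66 although the labels give both genotypes the same leu2 allele. Genes of chromosome I had a median difference of 0.83 over 90 genes, and none of the 31 sterol genes lies on that chromosome. The strains may therefore differ at more than NPL3, and the loss of NPL3 cannot be told apart from other differences between them in any value given here. Of 6 a-specific markers of MATa cells, 5 stood between 9.42 and 11.14 in wild type cells, and BAR1 was at 1.10, while 4 alpha-specific genes stood between 3.72 and 7.38. In deletion cells the same 5 stood between 8.87 and 11.18, BAR1 at 1.06 and the alpha-specific genes between 3.13 and 7.86. MFA1, MFA2, STE6 and AGA2 were lower there by 0.88, 0.62, 0.34 and 0.55, and STE2 differed by 0.04. SAG1 was higher by 0.48, MF(ALPHA)1 and MF(ALPHA)2 were lower by 0.89 and 0.21, and STE3 differed by 0.06. The spiked hybridization controls averaged 8.86 to 9.01 on the wild type arrays and 7.57 to 8.79 on the deletion arrays, with npl3 deletion replicate 1 the lowest. The labelling controls averaged 4.0 to 4.17 and 4.46 to 4.82. The 5′ minus 3′ value of 8 yeast control genes averaged -1.44 to -1.31 and -0.87 to -0.83. These controls moved with the genotype, and their part in the differences that follow was not tested.

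Most sterol genes stood higher in the deletion, by small amounts, and a minority stood lower. At a limma adjusted p under 0.05, the rule for a call throughout, 16 of the 31 rose and 6 fell, which left 9 uncalled. The called share was 71.0%, against 61.8% of all genes, so by itself it lies near the background. The split leaned upward: 51.6% of the sterol genes rose, against 32.9% of all genes, and 19.4% fell, against 28.9%. The median difference was 0.16 on the log2 scale, against 0.01 over all genes. The sizes were modest, since only UPC2, which rose, and ERG5, which fell, also changed by at least 1.5-fold, 6.45% of the set against 16.9% of all genes. The values of the 2 genotypes did not overlap for 25 of the 31 genes (80.6%, against 68.8% of all genes). Without npl3 deletion replicate 1, the array with the lowest hybridization controls, 15 rose and 5 fell. In that fit 3106 of all 5449 genes were called, against 3369 with all 6 arrays.

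**Figure D1:**
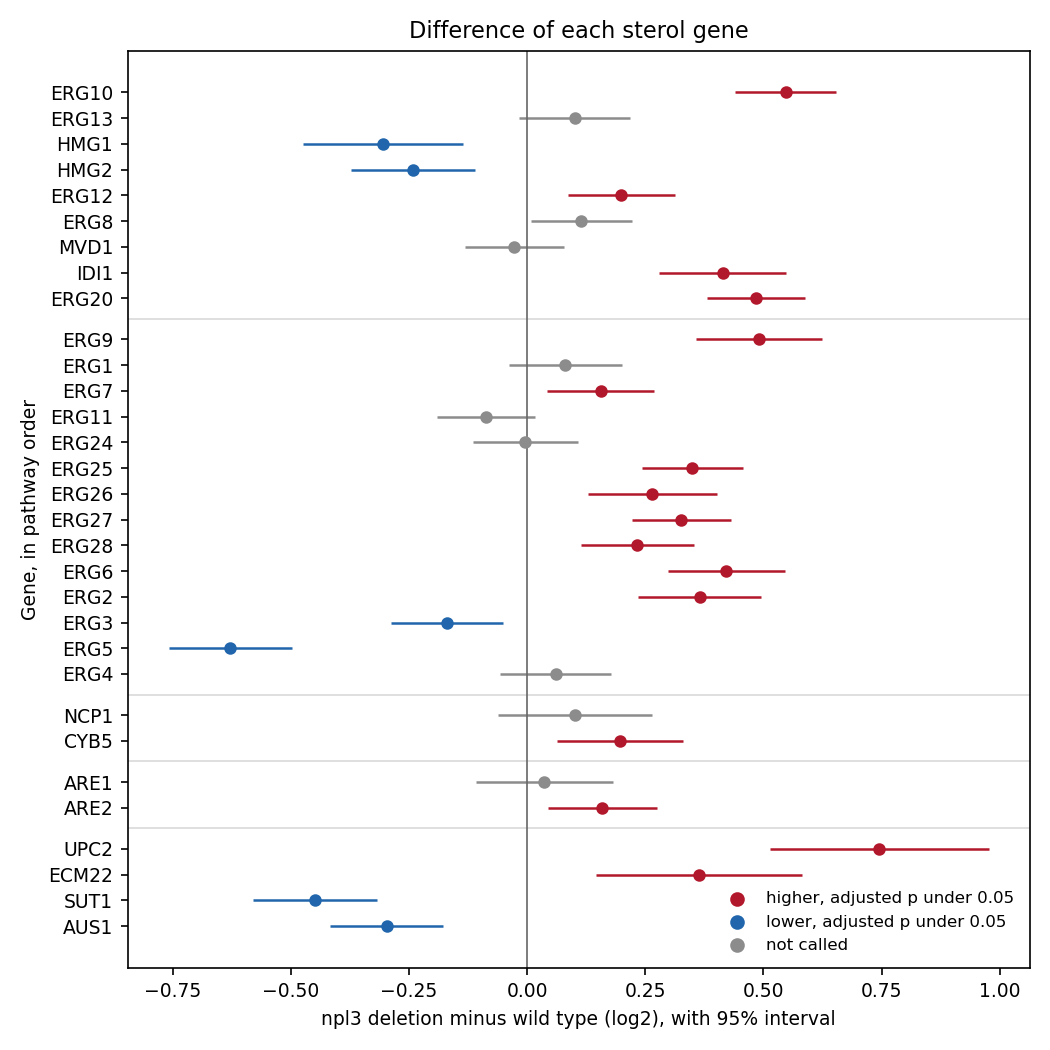
Difference between the npl3 deletion and wild type for each of the 31 genes (log2, x axis), in pathway order (y axis), with the 95% interval of the limma fit as bars and colours for the call, 3 arrays per genotype. UPC2 lies farthest to the right at 0.75 and ERG5 farthest to the left at -0.63.

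In the mevalonate route the first enzyme and the last 2 rose, while both forms of the reductase between them fell. ERG10, the thiolase that joins acetyl-CoA units, read 10.89, 10.92 and 10.85 in wild type and 11.40, 11.47 and 11.43 in deletion cells. All 3 deletion arrays stood above all 3 wild type arrays, a rise of 0.55 (SE 0.05, 1.46-fold, limma adjusted p = 3.7e-05). ERG20, farnesyl diphosphate synthase, read 11.22, 11.17 and 11.17 in wild type and 11.70, 11.65 and 11.65 in deletion cells. The groups were again apart, with a rise of 0.48 (SE 0.04, 1.40-fold, adjusted p = 6.4e-05). IDI1, the isomerase that makes the allylic partner for Erg20, read 10.32, 10.22 and 10.13 against 10.62, 10.67 and 10.62. Its rise of 0.41 (SE 0.06, adjusted p = 5.3e-04) was larger than the wild type spread, which was the wider of the 2 groups for this gene. ERG12, mevalonate kinase, rose by 0.20 (SE 0.05, adjusted p = 0.0089), also without overlap.

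HMG1 and HMG2 encode the isozymes of HMG-CoA reductase, the committed and most strongly controlled step of the route. HMG1 read 10.88, 11.02 and 10.93 in wild type and 10.74, 10.50 and 10.66 in deletion cells. Every deletion array lay below every wild type array, and HMG1 fell by 0.31 (SE 0.07, adjusted p = 0.0075). HMG2, whose protein is degraded when the pathway is well supplied, read 9.45, 9.36 and 9.52 against 9.25, 9.16 and 9.20. It fell by 0.24 (SE 0.06, adjusted p = 0.0068), and its groups did not overlap either.

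The other 3 mevalonate genes were not called. ERG8, phosphomevalonate kinase, was the uncalled gene nearest to the threshold and read 10.03, 10.08 and 10.05 in wild type and 10.22, 10.14 and 10.15 in deletion cells. The deletion arrays were all higher, by 0.11 on average (95% interval 0.01 to 0.22, not adjusted for the number of genes), with adjusted p = 0.060. It passed the test with each array centred on its median (adjusted p = 0.043) and with a trended variance model (adjusted p = 0.041). ERG13, HMG-CoA synthase, differed by 0.10 (95% interval -0.02 to 0.22, adjusted p = 0.12). MVD1, the decarboxylase that makes isopentenyl diphosphate, differed by -0.03 (95% interval -0.13 to 0.08, adjusted p = 0.62), and it was the only one of the 9 whose groups overlapped. In total 4 of the 9 mevalonate genes rose and 2 fell, with a median of 0.11. The called share of 66.7% lies near the 61.8% of all genes. The groups did not overlap for 8 of the 9 (88.9%), against 68.8% of all genes.

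Among the 14 late genes there were 8 rises and 2 falls, and the median was 0.19. The remaining 4 were uncalled. Of the late genes 71.4% were called, against 61.8% of all genes, and 57.1% rose, against 32.9%. The entry step rose most. ERG9, squalene synthase, which commits farnesyl diphosphate to sterols, read 10.52, 10.68 and 10.53 in wild type and 11.02, 11.10 and 11.07 in deletion cells. All deletion arrays were higher, by 0.49 (SE 0.06, 1.40-fold, adjusted p = 2.2e-04). ERG1, squalene epoxidase, differed by 0.08 (95% interval -0.04 to 0.20, adjusted p = 0.21), with overlapping groups. ERG7, lanosterol synthase, rose by 0.16 (SE 0.05, adjusted p = 0.024). ERG7 was no longer called when wild type replicate 3 (adjusted p = 0.091), deletion replicate 2 (adjusted p = 0.055) or deletion replicate 3 (adjusted p = 0.076) was left out, or after quantile normalization (adjusted p = 0.052).

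Neither gene of the step that removes the first methyl group from lanosterol and reduces the double bond left behind was called. ERG11, the cytochrome P450 demethylase that azole antifungals inhibit, differed by -0.09 (95% interval -0.19 to 0.02, adjusted p = 0.12). Its 3 deletion arrays nevertheless all lay below the wild type arrays, and under the trended variance model it passed the test (adjusted p = 0.0496). ERG24, the reductase that follows, differed by -0.004 (95% interval -0.11 to 0.11, adjusted p = 0.95), and its sign turned without wild type replicate 1, npl3 deletion replicate 1 or npl3 deletion replicate 2 and with median centring.

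The 4 genes of the complex that removes the next pair of methyl groups all rose, and none of them overlapped between genotypes. This grouping was made after the values were seen, and over all genes 32.9% rose and 68.8% did not overlap. ERG25, the iron-dependent methyl oxidase, read 11.84, 11.75 and 11.82 in wild type and 12.14, 12.16 and 12.17 in deletion cells, a rise of 0.35 (SE 0.05, adjusted p = 3.8e-04). ERG27, the keto reductase, read 10.34, 10.38 and 10.31 against 10.69, 10.64 and 10.67, a rise of 0.33 (SE 0.04, adjusted p = 5.0e-04). In both, the deletion arrays lay close together and well above the wild type arrays. ERG26, the decarboxylating dehydrogenase, rose by 0.27 (SE 0.06, adjusted p = 0.0053), and ERG28, the scaffold of the complex, rose by 0.23 (SE 0.05, adjusted p = 0.0054).

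The last steps were split, with 2 of 5 genes called higher and 2 lower, 40% each, against 32.9% and 28.9% of all genes. This grouping, too, was made after the values were seen. ERG6, the sterol methyltransferase that gives ergosterol its fungal side chain, read 11.33, 11.23 and 11.17 in wild type and 11.69, 11.66 and 11.65 in deletion cells, a rise of 0.42 (SE 0.05, adjusted p = 3.2e-04). ERG2, the sterol isomerase, read 11.85 on each of the wild type arrays and 12.32, 12.18 and 12.14 in the deletion, a rise of 0.36 (SE 0.06, adjusted p = 8.8e-04). For ERG2 the spread came almost wholly from the deletion arrays, of which replicate 1 was the highest.

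ERG5, the cytochrome P450 that introduces the side-chain double bond, moved the other way and had the largest fall of the 31 genes. It read 10.67, 10.76 and 10.61 in wild type and 10.10, 10.003 and 10.06 in deletion cells, and fell by 0.63 (SE 0.06, 1.55-fold lower, adjusted p = 5.2e-05). A difference at least this large in either direction was seen in 15.3% of all genes. ERG3, the desaturase of the sterol ring, fell by 0.17 (SE 0.05, adjusted p = 0.021). ERG3 missed the threshold when wild type replicate 1 (adjusted p = 0.058), deletion replicate 1 (adjusted p = 0.063) or deletion replicate 2 (adjusted p = 0.054) was left out. ERG4, the reductase of the final step, differed by 0.06 (95% interval -0.06 to 0.18, adjusted p = 0.32), with overlapping groups.

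**Figure D2:**
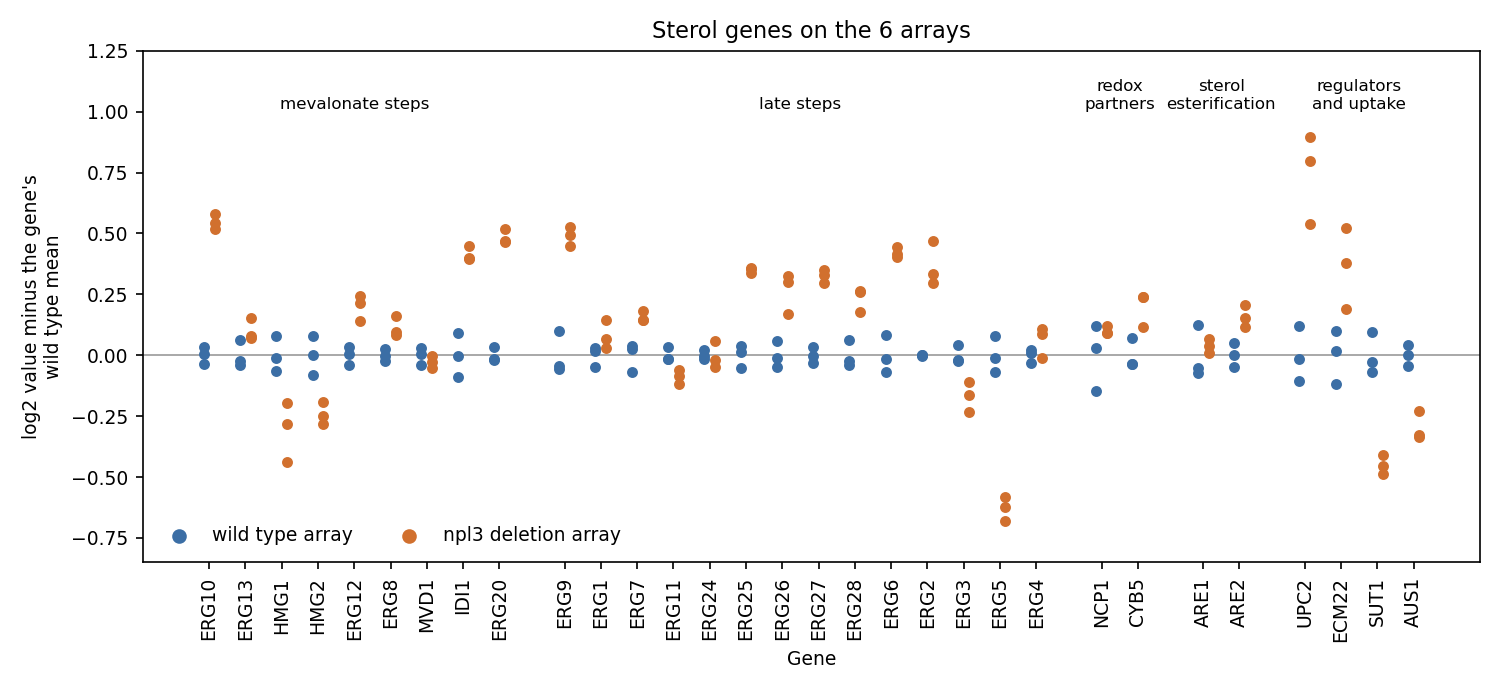
Value of each of the 31 genes on each of the 6 arrays, as the log2 value minus the mean of the gene's 3 wild type arrays (y axis), with genes in pathway order (x axis), wild type in blue and the npl3 deletion in orange. Genes whose orange points all lie above the blue ones include ERG10, IDI1, ERG20, ERG9, ERG25, ERG27, ERG6, ERG2 and UPC2. Those whose orange points all lie below include HMG1, HMG2, ERG5, SUT1 and AUS1.

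The redox partners and esterifying enzymes moved less. CYB5, cytochrome b5, which passes electrons to the sterol oxidase and desaturase, rose by 0.20 (SE 0.06, adjusted p = 0.018). CYB5 missed the threshold when wild type replicate 2 (adjusted p = 0.056) or 3 (adjusted p = 0.061), or deletion replicate 1 (adjusted p = 0.056) or 3 (adjusted p = 0.064), was left out. NCP1, the reductase that serves the P450 enzymes, differed by 0.10 (95% interval -0.06 to 0.26, adjusted p = 0.24), and its wild type arrays spread from 11.02 to 11.29. The difference was 0.03 without wild type replicate 1 and 0.16 without wild type replicate 3, uncalled in both cases.

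ARE1 and ARE2 encode the acyltransferases that store sterols as esters in lipid droplets. ARE2 read 8.60, 8.50 and 8.55 in wild type and 8.66, 8.70 and 8.76 in deletion cells, a rise of 0.16 (SE 0.05, adjusted p = 0.024). It was the called gene nearest to the threshold, and it missed when wild type replicate 2 (adjusted p = 0.074) or 3 (adjusted p = 0.064), or deletion replicate 2 (adjusted p = 0.060) or 3 (adjusted p = 0.085), was left out. ARE1 read 7.97, 8.0 and 8.17 against 8.11, 8.05 and 8.08. Its groups overlapped, and the difference of 0.04 was not called (95% interval -0.11 to 0.18, adjusted p = 0.64).

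All 3 regulators changed, the activators UPC2 and ECM22 upward and SUT1 downward, where 61.8% of all genes were called. UPC2 read 7.03, 7.12 and 7.26 in wild type and 7.94, 8.03 and 7.68 in deletion cells. It had the largest difference of the 31 genes, a rise of 0.75 (SE 0.10, 1.68-fold, adjusted p = 4.3e-04), and 11.8% of all genes differed by at least as much. With each array left out in turn its rise ran from 0.67 to 0.85. ECM22 read 7.74, 7.66 and 7.52 against 8.02, 8.16 and 7.83, a rise of 0.36 (SE 0.09, adjusted p = 0.011). For both activators npl3 deletion replicate 2 was the highest deletion array and replicate 3 the lowest, and even the lowest stood above every wild type array. Without 1 array at a time the rise of ECM22 ran from 0.28 to 0.45.

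SUT1 encodes a zinc-cluster factor that promotes sterol uptake when oxygen is short, and AUS1 an ABC transporter that imports sterols under those conditions. SUT1 read 7.99, 8.03 and 8.15 in wild type and 7.65, 7.57 and 7.60 in deletion cells. The groups lay apart, and it fell by 0.45 (SE 0.06, 1.37-fold lower, adjusted p = 3.2e-04). AUS1 fell by 0.30 (SE 0.05, adjusted p = 0.0016), from 7.45 ± 0.04 to 7.16 ± 0.06 (mean ± SD, n = 3 arrays each), also without overlap. PDR11, a gene of the sterol uptake list described below, moved the opposite way to AUS1. It rose by 0.27 (SE 0.08, limma adjusted p = 0.023), again without overlap. Over all 31 genes the SD within a group had a median of 0.05 and ran from 0.002 (ERG2, wild type) to 0.18 (UPC2, deletion).

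**Figure D3:**
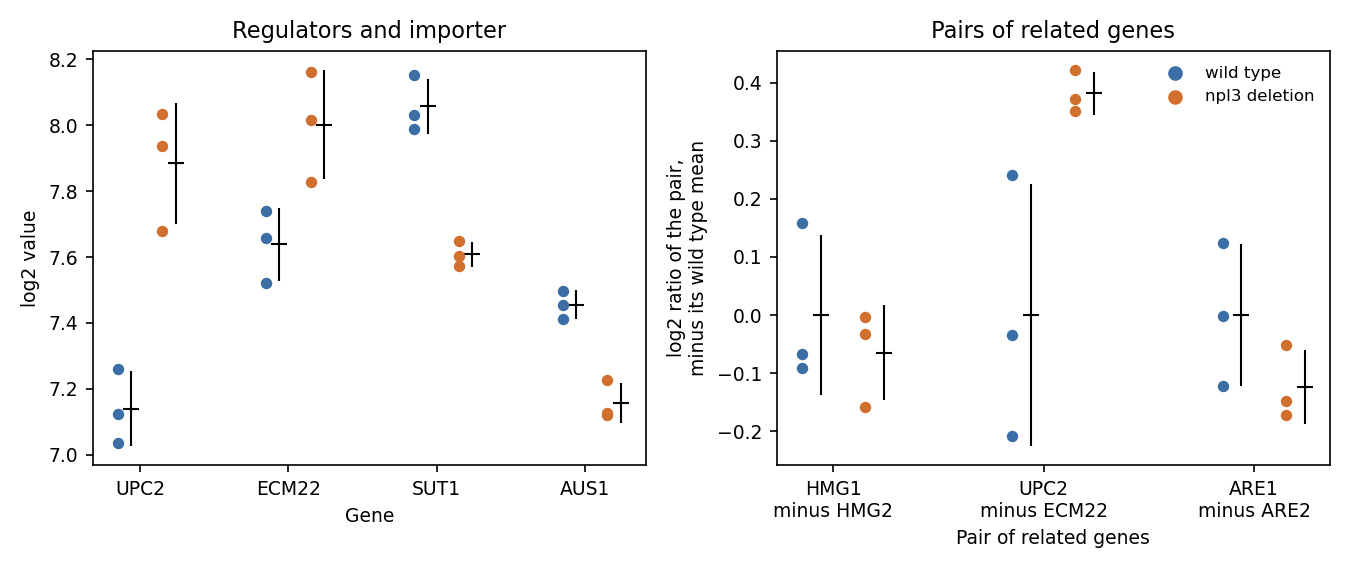
Left, log2 values of UPC2, ECM22, SUT1 and AUS1 on each array, with the mean and SD of each group (n = 3). Right, the log2 ratio of each pair of related genes within an array, minus the mean of the wild type arrays, with mean and SD. UPC2 minus ECM22 is higher on all 3 deletion arrays, and the groups overlap for the other pairs.

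Whether the genes of a related pair moved unequally was asked for 3 pairs, through the log2 ratio of the pair within each array. For UPC2 minus ECM22 the ratio, set against its wild type mean, was -0.21, -0.03 and 0.24 on the wild type arrays and 0.42, 0.37 and 0.35 on the deletion arrays. The shift of 0.38 reflects the larger rise of UPC2 (two-sided exact permutation p = 0.1, the lower limit for 3 against 3 arrays, and 0.3 adjusted over the 3 pairs), and it did not pass the test. For HMG1 minus HMG2 the shift was -0.06 with overlapping groups (exact permutation p = 0.6), and it turned to 0.01 without wild type replicate 2. For ARE1 minus ARE2 it was -0.12, again with overlap (exact permutation p = 0.2), and it was -0.06 without wild type replicate 3 and -0.18 without wild type replicate 1. After adjustment over the 3 pairs these were 0.6 and 0.3.

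Around the pathway, 74 further genes in 7 lists were tested, of which 28 rose, 23 fell and 23 were not called (68.9% called, against 61.8% of all genes). In sterol uptake and lipid ABC transport 3 of 8 rose and 4 fell, a called share of 87.5%, with a median of -0.24. DAN1, an anaerobic wall mannoprotein, rose by 1.27 and TIR1, another such mannoprotein, by 0.27, while PDR16, a phosphatidylinositol transfer protein, fell by 0.64 and the ABC transporter gene PDR15 fell by 0.29. DAN1 stood at 2.93 ± 0.12 in wild type cells, below the 3.96 that NPL3 read in its own deletion, so the size of its rise is uncertain. BAR1, deleted in both strains, read 1.10 in wild type cells, so the reading of an absent transcript differs between probe sets.

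Among 18 genes of sterol transfer and export, 7 rose and 6 fell (median 0.06), so 72.2% were called, against 61.8% of all genes. HES1 of the oxysterol-binding family read 4.36, 4.36 and 4.24 in wild type and 7.06, 7.03 and 6.64 in deletion cells, far apart. Its rise of 2.59 was larger than that of any gene of the pathway itself. Its wild type mean of 4.32 lay only a little above the 3.96 that NPL3 read in its own deletion. The size of the HES1 rise is therefore uncertain too. ARV1, needed for sterol distribution, rose by 0.78. PRY1, a secreted sterol-binding protein, fell by 1.11, and OSH2 of the same family as HES1 fell by 0.67.

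Of the 5 genes of steryl ester hydrolysis and sterol acetylation, 3 rose and 2 fell (median 0.26), and each of the 5 was thus called, against 61.8% of all genes. ATF2, which acetylates sterols, rose by 0.96, and SAY1, which removes that acetyl group, fell by 0.52. The steryl ester hydrolase genes YEH1 and TGL1 rose by 0.33 and fell by 0.33. In the other isoprenoid branches 3 of 11 rose and 2 fell (median -0.02), a called share of 45.5%, below that of all genes. BTS1, geranylgeranyl diphosphate synthase, rose by 0.40 and RAM1, a farnesyltransferase subunit, by 0.22, whereas COQ1 and COQ2 of ubiquinone synthesis fell by 0.36 and fell by 0.40. RAM1 missed the threshold when wild type replicate 2 (adjusted p = 0.081) or deletion replicate 2 (adjusted p = 0.087) or 3 (adjusted p = 0.052) was left out.

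Of 11 genes listed under Hmg2 degradation and sterol sensing, 5 rose and 2 fell (median 0.09). The called share of 63.6% was close to the 61.8% of all genes. Whether each listed gene acts on Hmg2 was not tested. DER1, a membrane protein of ER-associated degradation, rose by 0.58 and ERG29, a protein linked to the methyl oxidase step, by 0.47. The ubiquitin ligase gene HRD1 and its partner USA1 fell by 0.35 and fell by 0.84. Of 15 genes of oxygen, haem and sterol control, 5 rose and 5 fell (median -0.03), a called share of 66.7%, also near that of all genes. SET4, at 3.58 ± 0.32 in wild type cells and so also below 3.96, rose by 0.93, and SUT2, the paralog of SUT1, rose by 0.72. ROX1, the repressor of hypoxic genes, fell by 0.59 and HMX1, haem oxygenase, fell by 0.36.

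For the supply of acetyl-CoA and NADPH, 2 of 6 genes rose and 2 fell (median -0.01), a called share of 66.7% against 61.8% of all genes. ZWF1, which opens the oxidative pentose phosphate route to NADPH, read 9.05, 9.62 and 9.36 in wild type and 8.49, 8.30 and 8.17 in deletion cells and fell by 1.02. ALD6, cytosolic aldehyde dehydrogenase, fell by 0.45. ACC1, acetyl-CoA carboxylase, which draws on the same acetyl-CoA for fatty acids, rose by 0.17. ACS1, acetyl-CoA synthetase, rose by 0.56, and it lies on chromosome I, whose genes had a median difference of 0.83.

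**Figure D4:**
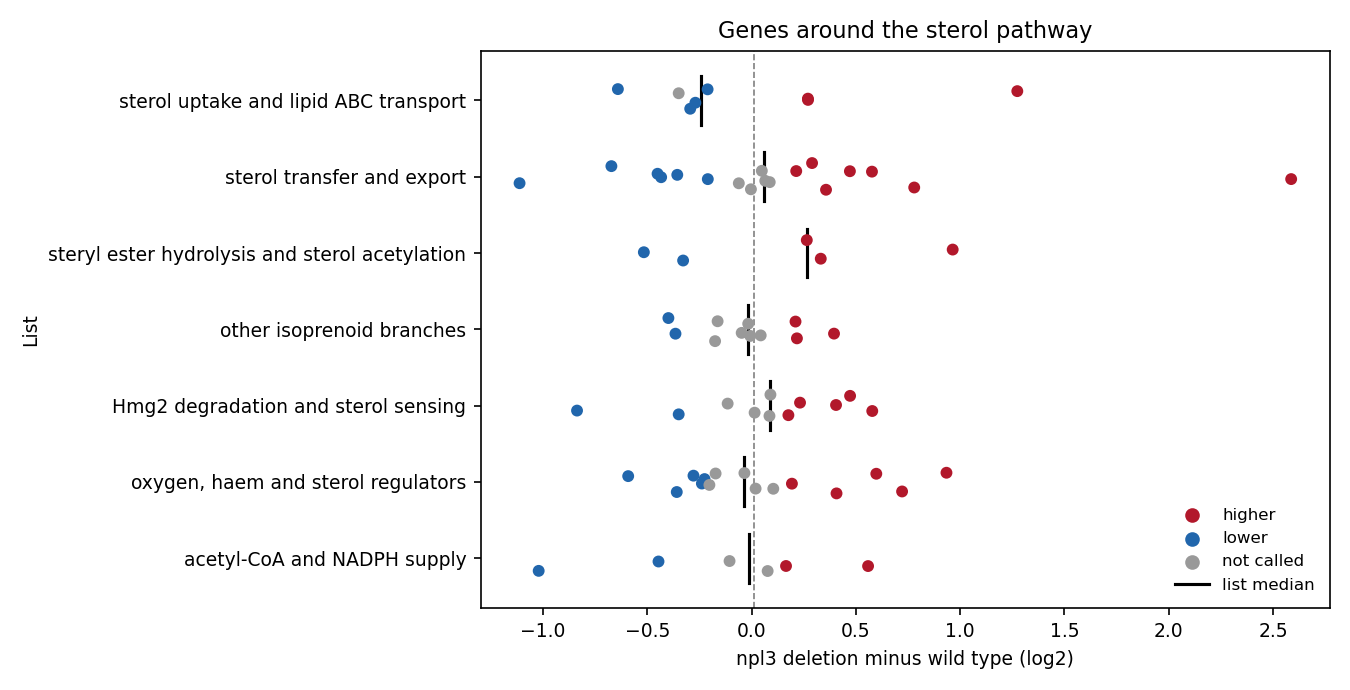
Differences between the npl3 deletion and wild type (log2, x axis) for the 74 genes of the 7 lists around the pathway (y axis), 1 point per gene coloured by its call, with the list median as a bar and the median of all genes as a dashed line. HES1 is the point at 2.59, and each list holds genes on both sides of the line.

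Probe sets with a sterol gene's name in lower case, which did not match the budding yeast reference, gave a measure of the floor for this pathway. The 20 of them read 1.06 to 2.93 on the wild type arrays and 1.14 to 2.92 on the deletion arrays, whereas the lowest value of any of the 31 genes on any array was 7.03.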

How the data were processed

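Per the labels' protocols, biotinylated cRNA made from total RNA was hybridised to Affymetrix arrays. The deposited log2 values, 1 for each probe set on each array, were used without further normalization. The submitters' processing notes list RMA and limma, without version or setting. Array medians were 4.81 to 4.98, and a shift common to most transcripts would not show in such values. The labels call the replicates biological and say no more of how the cultures were raised, so p-values measure the spread between these arrays.

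Of 10928 probe sets, 5498 matched a gene of the R64 reference table by gene identifier, and the brightest by mean over the 6 arrays stood for each of 5449 genes. The background level of 2.13 is the 95th percentile of the 1746 probe sets whose named gene did not match. Differences came from limma 3.58.1 under R 4.3.3 (lmFit, eBayes, no covariates, two-sided), adjusted by Benjamini-Hochberg over all 5449 genes. Ratios of related genes were tested by exact permutation. In data simulated with the spread of these arrays, 57% of genes changed by 0.3 and 99% of those changed by 1 were called. Of all calls in the simulation, 5.46% were false. Far fewer genes were changed in the simulation than were called in the real comparison. The adjusted threshold depends on that number, so these rates need not hold for the real comparison. Tables and figures were made with Python 3.11.15, pandas 2.3.3, NumPy 2.4.6 and matplotlib 3.10.9.

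The 31 genes and the lists around them were chosen with earlier results of these data known. All 31 were named, with array values for those called with a difference of at least 0.3, for the related pairs and for the genes nearest to the threshold. From each further list the 2 largest called rises and falls were named, and PDR11 was added for comparison with AUS1. The alternatives tried were leaving out each array, a replicate block, quantile normalization, median centring, a background filter, a trended and robust variance, averaged probe sets, removal of s and x probe sets and a 1.5-fold minimum. The number of arrays limits the precision. No sequences were used here.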

Additional observations from a re-analysis of the deposited data

How the results depend on the processing

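Counts of called genes changed little under most alternatives. Requiring a 1.5-fold change left 923 of the 3369 called genes, 1 of the 16 sterol genes that rose, 1 of the 6 that fell, 1 of the 10 late genes called and 0 of the 6 mevalonate genes called. The other alternatives gave 13 to 17 genes higher and 5 to 7 lower. The late median of 0.19 ran from 0.17 to 0.22 over the fits that drop 1 array and was 0.16 after quantile normalization. Of the 22 called sterol genes, 18 kept their call with each array left out, and ERG7, ERG3, CYB5 and ARE2 lost it in at least 1 case. Over all genes, 2926 to 3288 were called with 1 array left out, against 3369 with all arrays. The share of all called genes that kept their call in every such fit is not given here, so the 18 have no background. Signs turned for uncalled values only: ERG24 ran from -0.0345 to 0.0181 without 1 array and was 0.00447 with median centring, ARE1 was -0.000515 without wild type replicate 1 (highest 0.0982), and HMG1 minus HMG2 was 0.0147 without wild type replicate 2 (lowest -0.11 without 1 array). Among other uncalled genes, 1 array moved ERG1 (0.05 without deletion replicate 3), ERG4 (0.04 without deletion replicate 2, 0.10 without 3) and MVD1 (-0.01 without wild type replicate 2, -0.05 without 3, -0.02 without deletion replicate 3) by over 1.5 times. Why these values moved was not tested. With a replicate block 3035 genes were called, with 14 sterol genes higher and 5 lower. The calls of ERG7 (adjusted p = 0.067), ERG3 (0.062), ARE2 (0.064) and RAM1 (0.070) were lost under it. Same-numbered arrays deviated from their group means with correlations of -0.14, -0.07 and -0.19, against -0.01 to 0.18 for arrays of different numbers. These values show no positive sharing by number, but they cannot show whether the cultures were raised in pairs.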
